A study of Homo sapiens with 4 samples.

Results

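The loci of 10 genes of the TGF-beta pathway were examined for sites of CEBPB. This is a transcription factor of the C/EBP family that binds DNA through a basic leucine zipper domain. The cells were NCM460, a line from human colon epithelium. The genes encode 3 receptors (TGFBR1, TGFBR2, TGFBR3), 2 ligands (TGFB1, TGFB2), 3 SMADs that carry the signal (SMAD2, SMAD3, SMAD4) and 2 inhibitors (SMAD7, SKIL). Sites were selected on their measured positions: a site belonged to a locus when it lay within 100 kb of the hg19 transcription start. The numbers of sites and their positions are therefore a description and were not tested. For each gene 1 start was used, taken to the nearest kb, and its other starts were not placed. Membership is by distance alone, so a site may lie in or nearer to another gene. A reproducible region is an interval that both replicates marked in the authors' deposited table, where the global irreproducible discovery rate (IDR) of the pair is at most 0.05. Of 25602 such regions on chromosomes 1 to 22 and X, 57 lay at these loci. Of the single peak summits of each list, 143 of 80530 in replicate 1 and 173 of 104307 in replicate 2 lay there.

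The groups were CEBPB ChIP from NCM460 cells (2 samples) and input chromatin of the same line (2 samples), and the labels name no treatment, genotype or time for either. Both ChIP samples come from 1 line, so the spread between them is that of repeated experiments on that line. The deposited fold is the ChIP signal over the local input background as the peak caller gave it, and is the authors' value throughout. From the fold and the p-value of each summit the number of extended reads there, called fragments, and the local input background were recovered. The background is in units of the scaled ChIP signal, in which 1 fragment counts as 0.927 in replicate 1 and 0.7997 in replicate 2, so it is not a number of fragments. The lowest backgrounds in the lists were 1.00 unit in replicate 1 and 1.36 units in replicate 2. Each value recurs unchanged at many summits, so it may be a floor and need not be the input measured there.

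TGF-beta ligands bind TGFBR2, which recruits and phosphorylates TGFBR1, while TGFBR3 (betaglycan) presents ligand, TGFB2 above all, to the signalling pair. TGFBR1 then phosphorylates SMAD2 and SMAD3, which join SMAD4 and enter the nucleus to regulate genes together with other transcription factors. SMAD7 blocks the receptors and is itself a target of the pathway, and SKIL (SnoN) represses transcription with SMADs. In the epithelium of the colon this pathway restrains growth.

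Sequences before the gene starts are shown for the contrasting cases of TGFBR2, the only one of the 10 genes with a summit of both replicates no more than 0.1 kb from its start, and SMAD4, whose nearest summit lay 37.6 kb away. They are the 250 bases before RefSeq starts in GRCh38.p14, plus strand, 5′ to 3′. Capitals mark a match to CCAAT on either strand (read as ATTGG on the other) or to TTGCNNAA, a loose C/EBP pattern.
TGFBR2, chr3:30606106-30606355: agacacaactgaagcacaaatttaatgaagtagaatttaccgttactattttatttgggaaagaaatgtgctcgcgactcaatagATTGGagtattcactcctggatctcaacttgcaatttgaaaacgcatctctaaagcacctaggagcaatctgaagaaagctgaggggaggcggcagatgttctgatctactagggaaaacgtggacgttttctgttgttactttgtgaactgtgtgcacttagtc
TGFBR2, chr3:30606351-30606600: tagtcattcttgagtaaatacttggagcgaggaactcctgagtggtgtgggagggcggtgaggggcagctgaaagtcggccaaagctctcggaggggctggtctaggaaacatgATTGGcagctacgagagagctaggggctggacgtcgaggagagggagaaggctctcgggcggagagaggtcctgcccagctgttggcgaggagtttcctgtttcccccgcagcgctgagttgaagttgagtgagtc
SMAD4, chr18:51029963-51030212: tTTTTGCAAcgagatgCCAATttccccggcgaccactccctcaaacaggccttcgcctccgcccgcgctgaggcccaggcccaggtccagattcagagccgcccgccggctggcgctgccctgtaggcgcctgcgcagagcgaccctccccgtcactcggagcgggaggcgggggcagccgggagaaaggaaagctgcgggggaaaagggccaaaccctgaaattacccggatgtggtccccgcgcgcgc
CCAAT is the box that gave the C/EBP family its name, although other factors are its main binders. In the first TGFBR2 window ATTGG began 165 bases before the start, and in the second 136 bases before it. The SMAD4 window held TTTTGCAA at 249 bases and CCAAT at 234 bases before its start.

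All 10 genes matched the RefSeq promoter table, with 25 windows of 250 bases. CCAAT was present in 10 of these 25 windows, at SMAD2, SMAD3, SMAD4, TGFBR1 and TGFBR2, and in 32.0% of all 35116 windows of the table. TTGCNNAA was present in 1 of the 25, the SMAD4 window shown, and in 9.05% of all windows. The C/EBP palindrome TTGCGCAA, which is a case of TTGCNNAA, was in none of the 25 and in 0.131% of all. The SMAD palindrome GTCTAGAC was in none of the 25 and in 0.182% of all. Both strands were searched. A match is only a match of letters, and most sites at these loci lay outside these windows.

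The regions were spread unevenly over the genes. TGFBR3 had 15, SMAD3 had 12 and TGFBR2 had 11, and these 3 loci held 38 of the 57 regions (66.7%). SMAD7 and TGFB2 had 4 each, SMAD2 and TGFB1 had 3 each, TGFBR1 and SKIL had 2 each, and SMAD4 had 1. As background, 200 kb tiles of chromosomes 1 to 22 and X, which are as wide as a locus but not centred on genes, held a median of 1 region and at most 18. Of 14764 tiles, 0.0271% held at least 15 regions, as TGFBR3 did. At least 12, the number at SMAD3, were held by 0.122%, and at least 11, the number at TGFBR2, by 0.264%. At least 4 were held by 17.6% of tiles, at least 3 by 27.6%, at least 2 by 41.6% and at least 1 by 60.9%. The numbers at the other 7 loci were therefore those of many tiles.

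**Figure D1:**
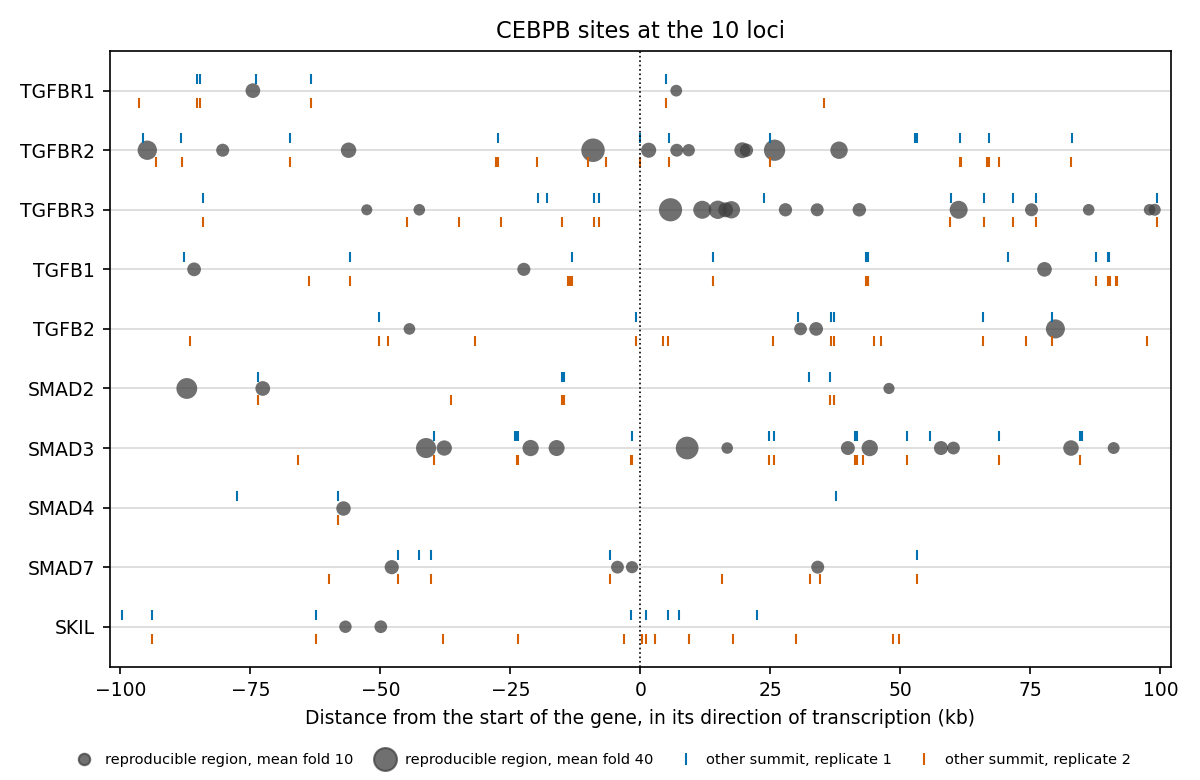
CEBPB sites along the 10 loci, by distance from the start of each gene in kb, positive in its direction of transcription. Discs are the 57 reproducible regions, with area by mean fold, and ticks are the other summits of replicate 1 (upper) and replicate 2 (lower). TGFBR3 and TGFBR2 have runs of 8 regions each, and SMAD4 has 1 region.

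**Figure D2:**
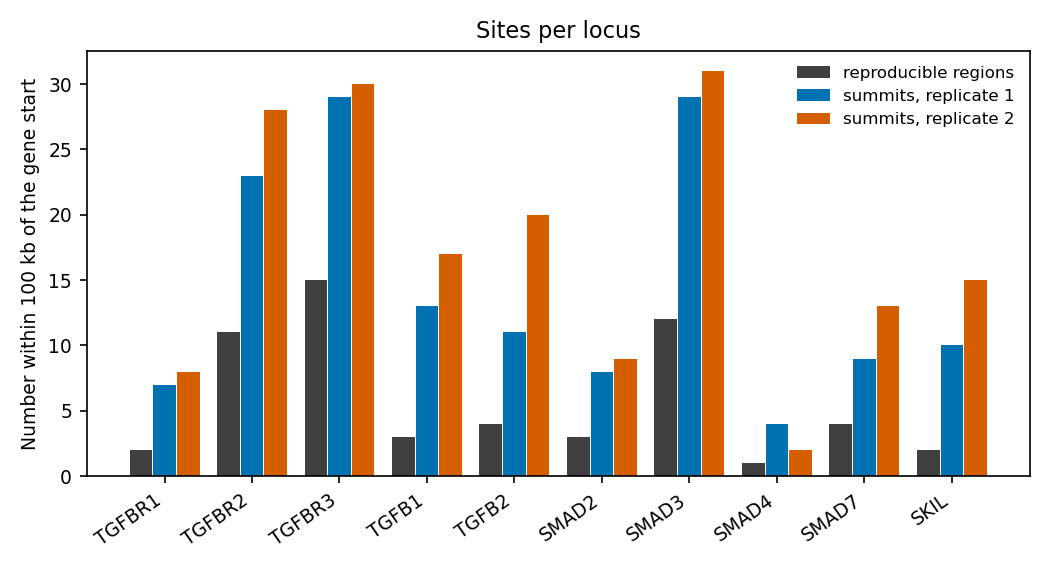
Number of reproducible regions and of summits of each replicate within 100 kb of each gene start. The 3 loci with the most regions, TGFBR3 with 15, SMAD3 with 12 and TGFBR2 with 11, also have the most summits in both replicates.

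Among the receptors, TGFBR2, the type II receptor that binds ligand first, held the region with the highest mean fold of the 57. It lay 9.1 kb upstream of the start (chromosome 3, 30638659 to 30639208, hg19), with a fold of 57.3 in replicate 1 and 27.6 in replicate 2 (mean 42.5 ± 21.0, SD, n = 2). Only 2.04% of all regions were as strong or stronger by mean fold. Its place rested on replicate 1, where its fold ranked 1 among the 57, whereas in replicate 2 it ranked 7. The fragments there were 250 in replicate 1 and 275 in replicate 2, whereas the input background was 3.06 and 7.0 units. The folds of the 2 replicates were thus far apart where their fragment numbers were close, and the backgrounds differed.

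The other strong regions of TGFBR2 lay on both sides of its start. At 25.8 kb downstream (30673480 to 30674084) the fold was 29.3 and 40.02, on 157 and 169 fragments. At 94.8 kb upstream (30552933 to 30553563) the fold was 37.7 and 19.9, on 243 and 247 fragments. Here too the fold was higher in replicate 1, over a background of 5.00 against 9.00 in replicate 2. At 38.2 kb downstream the fold was 24.8 and 21.6, and at 19.6 kb downstream it was 23.2 and 15.5. At 56.1 kb upstream it was 22.9 and 13.6. The region nearest to the start lay 1.6 kb downstream (30649375 to 30649784), with a fold of 16.7 and 18.3 on 64 and 86 fragments. The remaining 4 TGFBR2 regions had mean folds of 11.7 to 13.6. Of its 11 regions, 8 formed an unbroken run from 9.3 kb upstream to 38.5 kb downstream, in which neighbouring midpoints were 0.8 to 12.4 kb apart.

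At the start of TGFBR2 itself both replicates had a weak summit outside any reproducible region. In replicate 1 it lay at 30647921 (fold 4.65, 19 fragments, q = 9.25e-07) and in replicate 2 at 30648039 (fold 4.25, 15 fragments, q = 0.000274). They lay 118 bp apart, beyond the 100 bp taken as a pair, although the authors' intervals overlap. Since the start is known to 0.5 kb here, it was not determined whether these peaks cover the windows printed above.

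TGFBR3, the co-receptor, held the most regions, and 13 of its 15 lay downstream of the start, on the side of the gene body. The strongest was also the nearest, 5.8 kb downstream (chromosome 1, 92365714 to 92366606), with a fold of 42.2 and 40.4 (mean 41.3 ± 1.24, SD, n = 2) on 181 and 207 fragments. Its folds were close in the 2 replicates, unlike those of the strongest TGFBR2 region, and its backgrounds were 3.00 and 3.12. Of all regions, 2.40% were as strong by mean fold.

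The next strongest TGFBR3 regions lay 14.9 kb (fold 29.8 and 21.7), 11.9 kb (22.02 and 27.8) and 61.2 kb downstream (21.9 and 27.8). Others lay 17.5 kb (19.9 and 26.3), 16.4 kb (11.1 and 22.8) and 42.1 kb downstream (11.3 and 16.6). The last of the 8 strongest lay 27.9 kb downstream (11.6 and 15.6). Of these 8 strongest regions, 6 had the higher fold in replicate 2, and all 8 had more fragments in replicate 2. The median fragments of all regions were also higher in replicate 2, at 76 against 58. The 2 upstream regions, at 42.5 and 52.6 kb, were weak, with mean folds of 10.3 and 9.42. A run of 8 regions reached from 5.4 to 42.4 kb downstream, with midpoints 1.1 to 10.4 kb apart. Another of 5 regions, 4 of them within the 100 kb limit, reached from 75 to 105 kb.

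TGFBR1, the type I receptor, had 2 regions. The stronger lay 74.5 kb upstream (chromosome 9, 101792296 to 101792731), with a fold of 20.0 and 13.2 on 70 and 64 fragments. COL15A1 is the neighbour on that side in the RefSeq gene order. The nearer lay 6.9 kb downstream (101873689 to 101874064), with a fold of 12.4 and 8.84 on 37 and 54 fragments. Both had the higher fold in replicate 1.

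**Figure D3:**
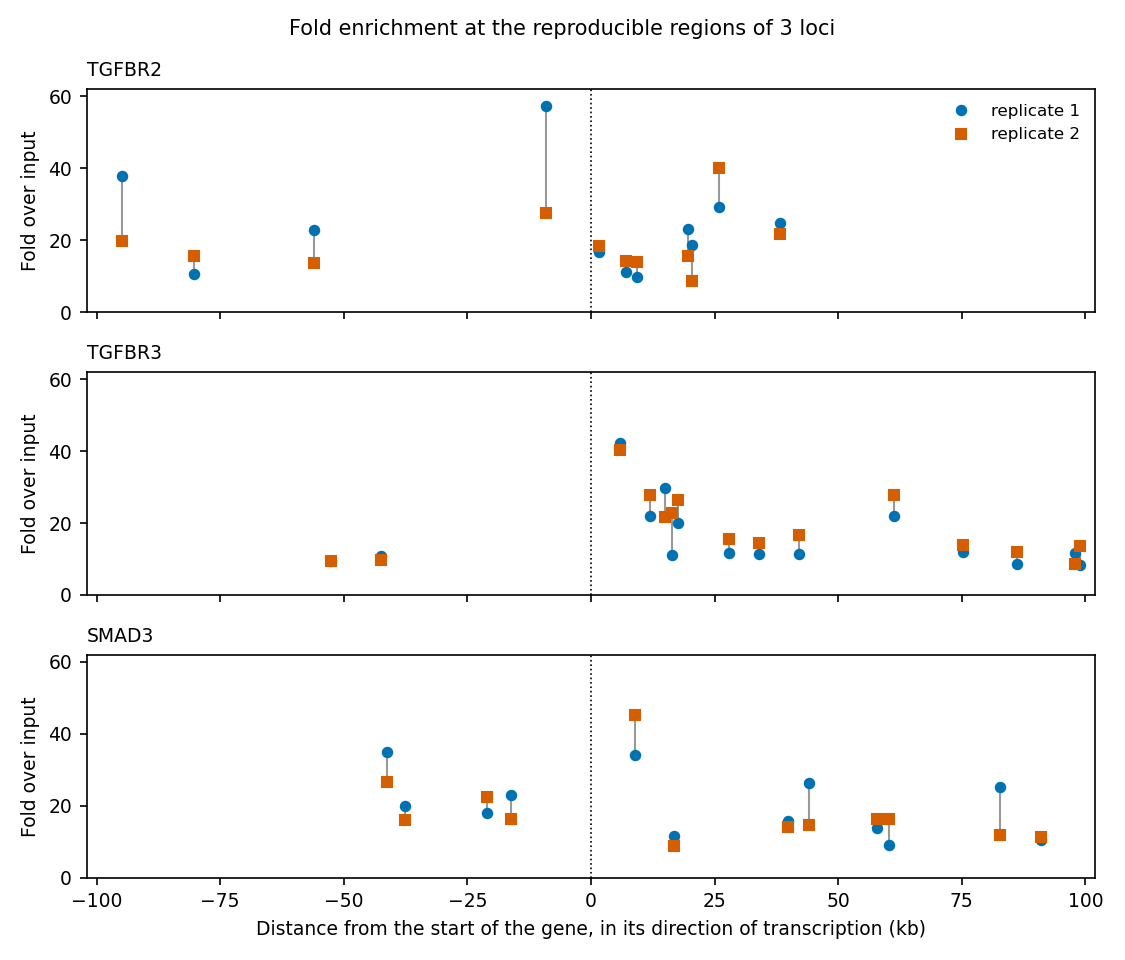
Deposited fold over input at the reproducible regions of TGFBR2, TGFBR3 and SMAD3 in replicate 1 (circles) and replicate 2 (squares), joined by a line per region, against distance from the gene start in kb. The TGFBR2 region 9.1 kb upstream has a fold of 57.3 and 27.6, whereas the TGFBR3 region 5.8 kb downstream has 42.2 and 40.4.

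The ligand loci had few and mostly moderate regions. TGFB2, the ligand that depends most on TGFBR3, had its strongest region 79.8 kb downstream (chromosome 1, 218599513 to 218600025), with a fold of 24.7 and 31.0 on 107 and 122 fragments. Its nearest region lay 30.8 kb downstream (218550511 to 218551010), with 12.4 and 12.6. Closer in, both replicates had a summit 0.9 kb upstream of the TGFB2 start that was in no reproducible region. Its fold was 4.68 on 13 fragments in replicate 1 and 7.99 on 29 fragments in replicate 2, with the summits 4 bp apart. TGFB1, the most widely expressed ligand, had its strongest region 77.7 kb downstream (chromosome 19, 41782124 to 41782497; fold 18.2 and 14.8; 39 and 73 fragments). Its nearest lay 22.4 kb upstream (41882214 to 41882528), with 11.1 and 15.3, and the other one, 85.8 kb upstream, had 19.5 and 9.53.

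The receptor-regulated SMADs differed in number of regions. SMAD3 had 12, of which the strongest was the nearest, 9.0 kb downstream (chromosome 15, 67366545 to 67367463). Its fold was 34.1 and 45.3 (mean 39.7 ± 7.89, SD, n = 2) on 183 and 232 fragments, and 2.95% of all regions were as strong. Next came a region 41.2 kb upstream (67316446 to 67317233), with a fold of 35.1 and 26.6 on 226 and 232 fragments. The upstream side of SMAD3 is that of SMAD6, an inhibitory SMAD, which is its neighbour in the RefSeq gene order of GRCh38.p14. All 4 upstream regions, from 16.1 to 41.2 kb, were among the 8 strongest of SMAD3. The other 3 had folds of 18.1 and 22.5 (21.1 kb), 23.04 and 16.3 (16.1 kb), and 20.0 and 16.0 (37.7 kb). Downstream, the regions at 44.1, 82.8 and 57.8 kb had folds of 26.3 and 14.7, 25.3 and 11.8, and 13.9 and 16.2. The region 16.1 kb upstream was the widest of the 57, at 1711 bp. A summit pair nearer the start, 1.6 kb upstream, had folds of 7.44 and 11.6 and was in no reproducible region.

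SMAD2, the other receptor-regulated SMAD, had 3 regions, all far from its start. The strongest lay 87.2 kb upstream (chromosome 18, 45543930 to 45544455), with a fold of 40.8 and 25.9 (mean 33.3 ± 10.5, SD, n = 2), and 6.79% of all regions were as strong. It had only 87 and 75 fragments, over backgrounds at the lowest values of the lists, 1.00 and 1.36 units. Its fold was therefore close to that of the SMAD3 region 41.2 kb upstream, which had 226 and 232 fragments over backgrounds of 5.00 and 6.0. The nearest region of SMAD2 lay 47.8 kb downstream (45409065 to 45409364), with a fold of 9.62 and 9.58.

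SMAD4, the partner shared by the receptor-regulated SMADs, had the fewest sites. Its 1 region lay 57.1 kb upstream (chromosome 18, 48499752 to 48500044), with a fold of 22.2 and 9.93 on 47 and 36 fragments. That is the side of ELAC1, its neighbour in the RefSeq gene order. Summits numbered 4 in replicate 1 and 2 in replicate 2. The nearest summit to the start was 37.6 kb downstream in replicate 1 (fold 3.73, 11 fragments, with no partner in replicate 2) and 57.1 kb upstream in replicate 2. No summit nearer the start was listed in either replicate, and every listed summit had a q-value of at most 0.05.

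Among the inhibitors, SMAD7 was the only one of the 10 genes with a reproducible region within 2 kb upstream of the start used here. That region lay 1.6 kb upstream (chromosome 18, 46478509 to 46478763), with a fold of 13.9 and 8.90 on 29 and 25 fragments, and at 255 bp it was the narrowest of the 57. The strongest lay 47.8 kb upstream (46524495 to 46525082), with a fold of 21.6 and 9.32 on 92 fragments in each replicate. Equal fragments stood there over a background of 3.00 in replicate 1 and 7.0 in replicate 2. SKIL had 2 regions, 49.9 kb (chromosome 3, 170025959 to 170026283; fold 9.40 and 15.5) and 56.7 kb upstream (170018993 to 170019630; fold 11.02 and 12.8). Both lay on the side of PRKCI, its neighbour in the RefSeq gene order. Within 1.0 kb of its start SKIL had a summit pair with folds of 4.52 and 4.01 and another summit in replicate 2, with a fold of 4.17. None of these was in a reproducible region.

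SMAD2, SMAD4 and SMAD7 lie on chromosome 18, and the input background was low at the median of their regions. Their 8 regions had median backgrounds of 1.00 and 1.36 units, the lowest in each list, against 3.00 and 3.12 at the other 49 regions. Median fragments were 37.5 and 36.5 at these 8, against 70 and 80 at the other 49. At SMAD7 the median background over all summits, inside and outside regions, was 3.00 in replicate 1, against 1.61 at SMAD2 and 1.00 at SMAD4. In replicate 2 it was 1.36 at SMAD7 and SMAD2 and 2.00 at SMAD4. Over all summits of chromosome 18 the median background was 1.29 in replicate 1 and 1.36 in replicate 2, against 2.14 and 2.20 over chromosomes 1 to 22 and X. The part of this background in the low number of SMAD4 sites was not tested.

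As a group the regions were of ordinary strength. In replicate 1 the median fold of the 57 was 15.7, against 15.3 over all 25602 regions, and in replicate 2 it was 14.7, against 16.0, and the median of the mean fold was 14.9, against 15.8. Median fragments were 64 and 77, against 58 and 76, and median width was 425 bp, against 421 bp. In the top 10% of all regions by mean fold were 6 of the 57 (10.5%). The stricter IDR of at most 0.01 was met by 30 of the 57 (52.6%), against 60.6% of all. The 38 regions at TGFBR2, TGFBR3 and SMAD3 had a median mean fold of 17.3, and the 19 at the other 7 loci 13.2. By locus the median mean fold did not follow the number of regions: it was 18.3 at TGFBR2 and at SMAD3, but 13.6 at TGFBR3, which had the most regions, against 16.6 at SMAD2 with 3 regions.

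No region lay within 1 kb of the start used for its gene, although 3 summits of replicate 1 and 4 of replicate 2 did. From 1 to 10 kb there were 9 regions, at 5 loci, or 50 per Mb of sequence. TGFBR2 had the most of these 9, at 9.1 kb upstream and at 1.6, 7 and 9.3 kb downstream. From 10 to 50 kb there were 27 (33.8 per Mb), and from 50 to 100 kb there were 21 (21 per Mb). Densities around the starts of other genes were not computed, so these are a description. Downstream of the start were 35 regions and upstream 22, of which TGFBR3 alone had 13 downstream and 2 upstream. Of the 57 regions, 20 (35.1%) were in runs of at least 3 with midpoints no more than 12500 bases apart, against 15.8% of all regions. All 20 were at TGFBR2 and TGFBR3, and SMAD3 with its 12 regions had no such run. Runs of at least 8, of which TGFBR2 and TGFBR3 had 1 each, numbered 5 on chromosomes 1 to 22 and X. The widest spacing in the TGFBR2 run was 12.4 kb, just under the limit for a run. The region nearest inside the 100 kb limit lay 98.9 kb downstream of TGFBR3 (mean fold 11.01) and the nearest outside it 104.8 kb downstream of the same gene (14.8). For summits, the nearest inside were at SKIL in replicate 1 (99.6 kb upstream, fold 7.81) and TGFBR3 in replicate 2 (99.4 kb, 7.45). The nearest outside was 102.3 kb downstream of SMAD3 in both (fold 6.22 and 8.02).

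At the 57 regions the summits of the 2 replicates were a median of 7 bp and at most 36 bp apart, against a median of 8 bp over all regions. The IDR kept regions on which the replicates matched, so this distance is a description. Fragments correlated between replicates with a Spearman rho of 0.902 over the 57 regions (0.890 over all), and folds with 0.491 (0.610 over all). Regions share libraries and depth, so these are descriptions. Folds more than 1.5 times apart were seen at 17 of the 57 (29.8%), against 29.5% of all regions. Fragments more than 1.5 times from the ratio expected at their height were seen at 5 (8.77%), against 12.98% of all.

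To ask which regions differed between the libraries beyond counting error, fragments of replicate 2 were compared with those of replicate 1 by a 2-sided exact binomial test per region, against the ratio usual for regions of like height. P-values were adjusted by the Benjamini-Hochberg method over all 25602 regions. This compares 2 libraries and no conditions. The IDR had kept regions on which the replicates matched, so the shares that passed hold for such regions alone. Of all regions, 3.14% passed an adjusted p of 0.05, with 1.34% having more fragments in replicate 2 and 1.80% more in replicate 1. Of the 57, 2 passed (3.51%), a share near that of all regions. The SMAD3 region 44.1 kb downstream had 109 fragments in replicate 2 and 141 in replicate 1, a ratio of 0.773 where 1.22 was usual (exact binomial test, adjusted p = 0.0214). The SKIL region 56.7 kb upstream had 79 in replicate 2 and 29 in replicate 1, a ratio of 2.72 where 1.37 was usual (exact binomial test, adjusted p = 0.0432). The strongest TGFBR2 region, with 275 and 250, did not pass, although its folds were far apart.

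**Figure D4:**
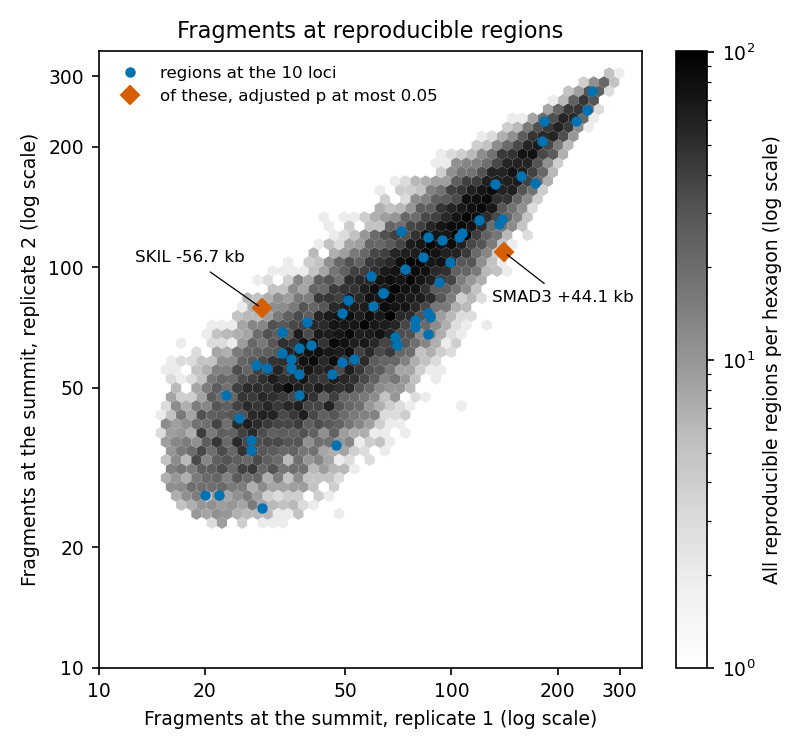
Fragments at the summit of each reproducible region in replicate 2 against replicate 1, on log axes. Grey hexagons count all 25602 regions, circles are regions at the 10 loci, and diamonds are the 2 that passed the exact binomial test. The SKIL diamond lies above the ratio of replicate 2 to replicate 1 that is usual at its height, and the SMAD3 diamond below it.

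Most summits at the loci were not in a reproducible region. In replicate 1, 63 of 143 were (44.1%, exact 95% binomial interval 35.8 to 52.6%), against 36.5% of all summits. In replicate 2, 66 of 173 were (38.2%, 30.9 to 45.8%), against 28.6% of all. The share was not a trait of all 10 loci. It was highest at TGFBR3 (62.1% in replicate 1 and 60% in replicate 2) and SMAD3 (51.7% and 54.8%). At TGFBR1 (28.6% and 25%), TGFB1 (23.1% and 17.6%) and SKIL (20% and 13.3%) it was below that of all summits in both replicates. The intervals for the 10 loci together cover counting error only and treat summits as independent, although neighbouring summits can share a region. Since the loci were chosen with results known, the intervals are no test against the share of all summits. Of the summits outside, 57 of 80 in replicate 1 (71.3%) and 58 of 107 in replicate 2 (54.2%) still had a summit of the other replicate within 100 bp, against 69.1% and 47.4% of all such summits. The summits outside were weaker, with median folds of 5.50 and 5.48, against 13.9 in each replicate for those inside. The strongest outside in replicate 1 lay 24.9 kb downstream of TGFBR2 (fold 19.6, 65 fragments, background 2.13), and its partner in replicate 2 had a fold of 6.33 on 70 fragments over a background of 8.00. The strongest outside in replicate 2 also lay at TGFBR2, 67.1 kb downstream (fold 11.8, 58 fragments), and its partner in replicate 1 had 5.97 on 32 fragments. Over all summits at the loci, inside and outside regions, 24 of 143 in replicate 1 (16.8%) and 53 of 173 in replicate 2 (30.6%) had no partner, against 21.0% and 39.0% of all summits. Of the 53, SKIL and TGFB2 had 10 each.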

How the data were processed

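Per the labels' protocols, CEBPB ChIP and input libraries of NCM460 cells were amplified by PCR and sequenced as paired reads. Per the submitters' processing notes, the tools were MACS2 2.1.2, bedtools 2.25.0, Bowtie2 2.3.4, FastQC 0.11.7 and SAMtools 1.9, on the hg19 build. For settings, duplicate handling and the pairing with inputs, nothing is given in the sources used here. The deposited peak lists, 1 per ChIP sample, hold for each summit the fold (a ratio over input background) and the p-value and q-value, both as −log10. The authors' deposited IDR table gives a −log10 global IDR for the pair of samples. Its 2 columns of values per sample were not used here, and fold and p came from the peak lists.

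The 10 genes, their starts and the lists were chosen with earlier results of these data known. Entries of equal interval counted as 1 region, so that the 27305 entries on chromosomes 1 to 22 and X gave 25602 regions. A region belongs to a locus by its midpoint. Fragments and background were solved from fold and p, with the pseudocount of 1 that MACS2 adds. Whole fragments were recovered at 100% of summits, within 0.005 on the −log10 p. Total reads are not held in the lists. The largest values were 299 and 312 fragments, so strong sites may be near a ceiling. Fragments at each region were compared with the median share in a running window of 1001 regions ranked by height. This step was tried on simulated counts that held planted changes and otherwise counting error alone. In the data, 16.6% of all regions and 22.8% of the 57 had an unadjusted p of at most 0.05 by the exact binomial test. The simulation did not cover spread between libraries beyond counting error. P-values and intervals cover counting error in 2 libraries only.

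Named sites were the strongest and the nearest region of each locus, up to 8 of the strongest where a locus had 5 or more, those passing the test between replicates, the strongest summits outside regions and the sites at the 100 kb limit; the summits near gene starts and a few contrasts were added after their values were seen. No hg19 sequence or annotation was used, so regions are not assigned to exons or introns, their sequences are not printed, and other pathway genes were not placed. Promoters and neighbouring genes are RefSeq's for GRCh38.p14, and no coordinate was converted. Input samples enter only through the deposited background. Numba 0.67.0, pandas 2.3.3, matplotlib 3.10.9, SciPy 1.17.1, statsmodels 0.14.6 and NumPy 2.4.6 ran under Python 3.11.15.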

Additional observations from a re-analysis of the deposited data

How the results depend on the processing

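The number of regions at the loci, 57, was 36 within 50 kb of the starts and 85 within 200 kb, 30 at an IDR of at most 0.01, and 118 when pairs of summits within 100 bp with q of at most 0.01 were counted. Without either replicate, the intervals of the remaining list numbered 133 to 158. The median mean fold of 14.9 was 20.0 when the IDR was limited to 0.01, and 14.7 to 15.7 without either replicate. The share of summits in a region, 44.1% in replicate 1 and 38.2% in replicate 2, became 24.5% and 21.4% at an IDR of at most 0.01. With a partner summit within 100 bp in place of a region it became 83.2% and 69.4%. Of the 2 regions that differed between replicates, 1 remained at an IDR of at most 0.01, where the SKIL region is not listed. Regions in runs of at least 3 numbered 20 with midpoints up to 12500 bases apart, 4 with 5 kb and 36 with 25 kb. Moving the 100 kb limit by 0.5 kb either way, chosen after seeing the data to cover the rounding of the starts, left 57 regions. No paired analysis was possible because the files analysed hold no value of an input sample by itself; ChIP and input meet only in the peak caller's own fold and p for each summit. Without replicate 1, the TGFBR2 region 9.1 kb upstream of the start, which has the highest mean fold, has a fold of 27.6 and ranks 7 among the 57. The weak summit pairs near the starts of TGFB2 and SKIL rest on 13 to 29 fragments and on 14 to 15.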
